A study of Mus musculus with 2 samples.

Results

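The AP-1, ATF and NF-kB factors are transcription factors that cells switch on within minutes of a stimulus, together with the proteins that hold them back. They were taken here as 38 named mouse genes: the FOS, JUN, ATF, BATF and MAF families, CREB1 and CREM, the NF-kB subunits, the IkB proteins, the IKK kinase complex, A20 (Tnfaip3) and SRF. Members were found as non-control probes whose gene name in the scanner files is a member, which gave 62 of the 55681 probes and 38 of the 22065 named genes of the array. Members were picked by name and not by a measured value, although earlier results of these data were known when members and lists were chosen.

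The cells were P5424, a mouse T-cell line with a Rag2 and P53 knockout, left untreated. The medium was RPMI1640, to which fetal bovine serum (10%) and 2-mercaptoethanol (0.1 mM) had been added. Total RNA was labelled with Cy3 from 200 ng and hybridised to 2 one-colour Agilent arrays, which form 1 group of 2 replicates. Whether they came from separate cultures is not given in the labels, and the difference between them can therefore be technical. There was no stimulated sample, and therefore no test between groups. What follows is the state of these genes at rest and its spread between the arrays.

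On each array 62976 spots were read and none was saturated. Well above background were 42.5% of probes on replicate 1 and 41.2% on replicate 2. A probe was called detected when the scanner software's well-above-background mark was set on each array, and a gene when any of its probes was. The level of a detected probe is the log2 of its signal minus that of the array's 75th percentile, 324 intensity units on replicate 1 and 299 on replicate 2, given as mean ± SD of the 2 arrays. A probe that was not detected has no level, and its signals are given as bounds. Levels of different probes are not comparable, since probes bind with different strength. The 308 negative control spots had a median of 6.55 units on replicate 1 and 7.50 on replicate 2. Their highest spots reached 15.1 and 101 units, and the second-highest 10.6 and 17.6 units. The limit of 101 units on replicate 2 is therefore set by 1 spot. All 8 T-lineage markers were detected, against 1 of 6 B-lineage, 2 of 6 myeloid and 0 of 6 stromal markers. Every Rag2 and Trp53 probe was detected, with Rag2 at 2132 and 2086 units for its brighter probe. Because the labels do not give the deleted parts, these signals check nothing about the genotype.

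AP-1 is a dimer of basic leucine zipper proteins, usually a FOS with a JUN, and ATF, BATF and MAF proteins share that zipper and form further pairs. The Fos gene is silent in resting cells and is transcribed within minutes through serum response factor and CREB that already sit on its promoter. NF-kB is stored instead as protein: subunits such as RELA wait in the cytoplasm bound to IkB proteins until the IKK complex marks the IkB for destruction. Among the first genes that NF-kB then turns on are its own inhibitors, IkB-alpha (Nfkbia) and A20, and subunits such as Nfkb2 and Relb. In thymocytes these pathways act downstream of the pre-T-cell receptor.

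The promoters are shown first because many of these genes are targets of the factors they encode. RefSeq promoter windows of assembly GRCm38.p6, reaching from 250 bases before to 50 after the annotated start, were matched for 29 of the 38 members. Those without a match were Fosl1, Atf6, Batf2, Crem, Maf, Nfkb1, Relb, Nfkbiz and Ikbkb. The 6 sequences below are the 150 bases before the start, 5′ to 3′ on the gene's strand. Capitals mark letters that match the kB consensus, the core of the cyclic AMP response element (CRE) TGACG, the AP-1 site TGACTCA or TGAGTCA, or the CArG box bound by SRF, searched on both strands.
Rel, chr11:23770970-23771119, minus strand: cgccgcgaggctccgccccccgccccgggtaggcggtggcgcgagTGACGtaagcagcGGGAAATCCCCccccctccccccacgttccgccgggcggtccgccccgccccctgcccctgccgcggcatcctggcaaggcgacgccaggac
Nfkb2, chr19:46304587-46304736, plus strand: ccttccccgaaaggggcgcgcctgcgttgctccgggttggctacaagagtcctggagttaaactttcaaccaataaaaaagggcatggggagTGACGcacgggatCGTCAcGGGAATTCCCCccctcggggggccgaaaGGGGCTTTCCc
Nfkbia, chr12:55492648-55492797, minus strand: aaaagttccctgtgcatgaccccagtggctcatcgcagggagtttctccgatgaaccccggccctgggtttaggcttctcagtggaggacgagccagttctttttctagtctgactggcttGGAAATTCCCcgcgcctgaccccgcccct
Tnfaip3, chr10:19015411-19015560, minus strand: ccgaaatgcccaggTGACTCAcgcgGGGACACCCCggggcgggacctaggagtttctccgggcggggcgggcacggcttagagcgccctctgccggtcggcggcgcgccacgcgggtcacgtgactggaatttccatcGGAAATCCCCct
Fos, chr12:85473740-85473889, plus strand: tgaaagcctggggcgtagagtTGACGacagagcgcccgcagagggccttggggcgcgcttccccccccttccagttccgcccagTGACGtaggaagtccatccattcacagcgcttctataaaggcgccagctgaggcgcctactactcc
Srf, chr17:46556163-46556312, minus strand: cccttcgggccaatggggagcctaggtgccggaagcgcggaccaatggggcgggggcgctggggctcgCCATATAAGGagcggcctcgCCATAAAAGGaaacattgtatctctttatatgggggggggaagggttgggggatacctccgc

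A match is a description of letters and not a binding site. The kB consensus was found in the windows of 12 of the 29 members, against 9.55% of the promoters of all 27025 genes. Those 12 were Fos, Fosb, Fosl2, Atf1, Atf5, Maff, Nfkb2, Rel, Nfkbia, Nfkbie, Bcl3 and Tnfaip3. Nfkb2 has 3 annotated starts and Tnfaip3 has 2 matches to the kB consensus in its window. The CRE core was found in 16 of 29, against 23% of all promoters, and in Fos it occurs at 2 places. The full palindromic CRE was found in 1 member, Maff, against 2.03% of all promoters. AP-1 sites were found in 3 members, Ikbkg, Nfkbie and Tnfaip3, against 5.95% of all promoters. The CArG box was found in the window of 1 member, Srf itself, where 2 copies lie close together, against 1.81% of all promoters. Bases farther upstream than the windows were not searched. The lack of a CArG match in the Fos window therefore does not show that Fos has no CArG box. TATAA was found in 6 of 29 members, against 28% of all promoters. The kB consensus stood in 8 of the 24 detected members with a window and in 4 of the 5 that were not detected, and the CRE core in 12 and 4. The AP-1 and CArG matches were all in detected members, and the full CRE was in 1 that was not detected.

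**Figure D1:**
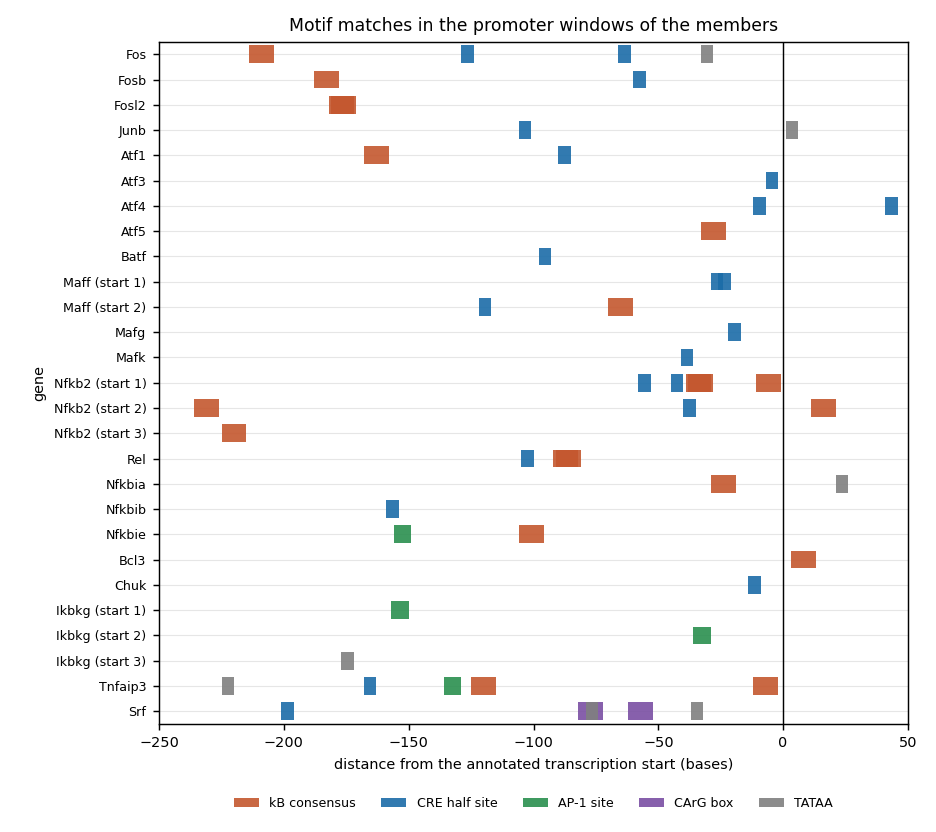
Matches of the motifs in the promoter windows of members that hold at least 1 match, with one row per annotated start and distance from the start in bases on the horizontal axis. Blocks are coloured by motif and the vertical line marks the transcription start; kB matches lie upstream of Rel, Nfkb2, Nfkbia and Tnfaip3.

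At rest, 29 of the 38 members were detected (76.3%), against 51.8% of all named genes. By probe, 46 of the 62 were detected (74.2%), against 40.1% of all probes. The 9 members that were not detected were Fos, Fosl1, Atf3, Atf6, Batf2, Crem, Maff, Rel and Bcl3. Of the 18 members grouped here as inducible 11 were detected (61.1%), and of the other 20 members 18 were detected (90%). The inducible ones were Fos, Fosb, Fosl1, Fosl2, Jun, Junb, Atf3, Batf, Crem, Maff, Nfkb2, Rel, Relb, Nfkbia, Nfkbie, Nfkbiz, Bcl3 and Tnfaip3. These 18 were read by 24 probes and the other 20 by 38, so the classes also differ in probes per gene. The number of probes per gene moves with detection. Of 24 members with 1 probe 16 were detected, against 45.1% of all genes with 1 probe, and of 14 members with several probes 13 were detected, against 66.2% of such genes. With signal above the highest negative control spot as the criterion, 22 members were detected, against 45.9% of all genes, 6 of them inducible and 16 among the others. If all probes of a gene were required to pass, 25 members did, against 44.6% of all genes. Under the looser criterion of any positive, significant signal, 34 members were detected, against 67.5% of all genes, and only Fosl1, Atf3, Atf6 and Rel failed it.

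**Figure D2:**
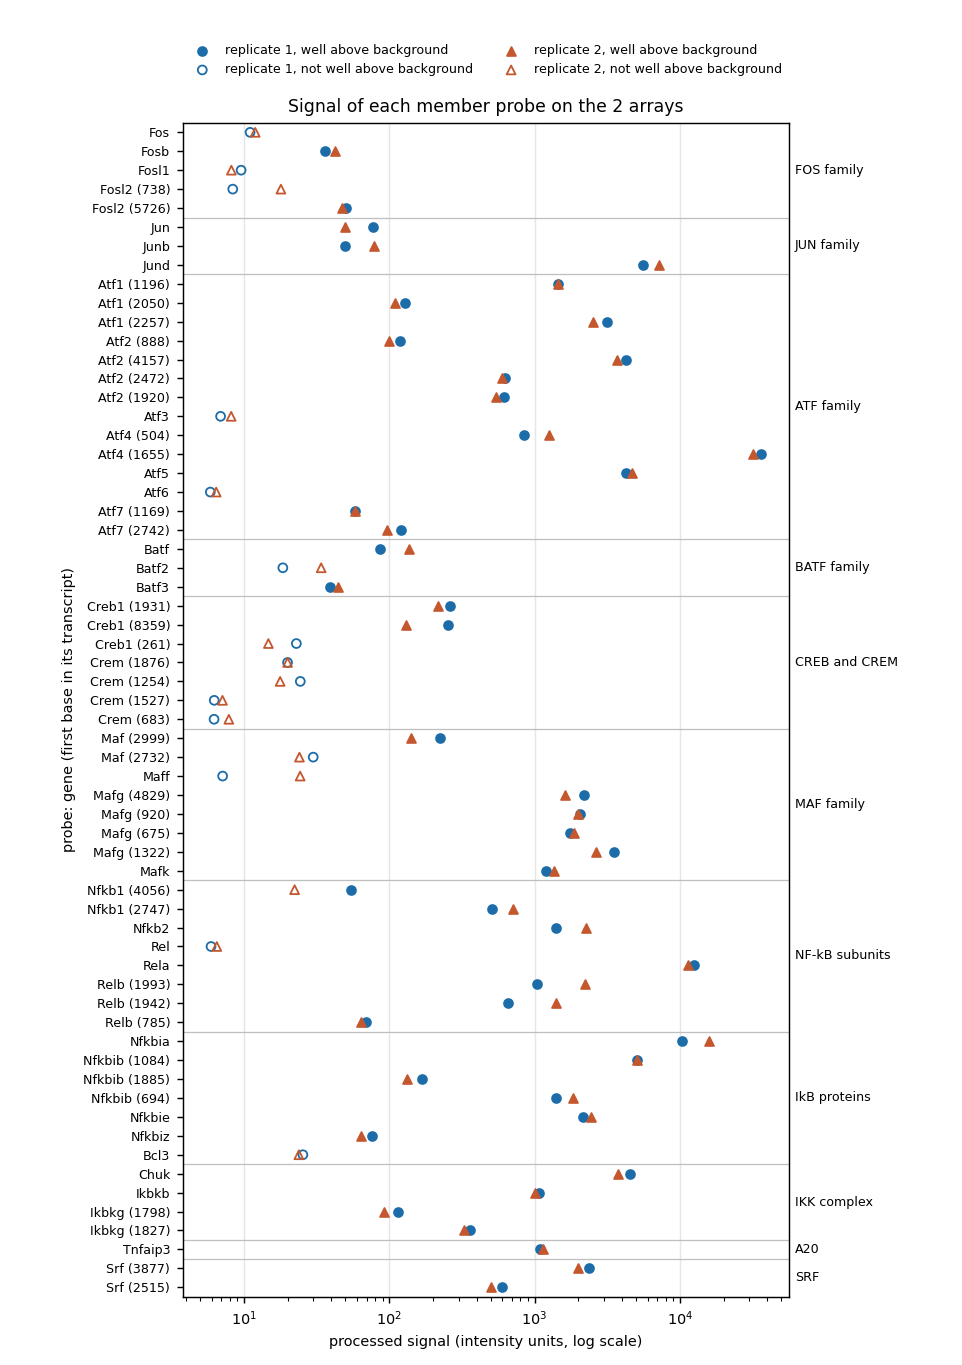
Processed signal of each of the 62 member probes on a log axis in intensity units, with probes down the page by role and circles for replicate 1 and triangles for replicate 2. Filled symbols are well above background; the open symbols of Fos, Fosl1, Atf3, Atf6, Rel and Crem lie below 25 units, while Jund, Rela, Nfkbia and 1 Atf4 probe are the brightest.

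In the FOS family 2 of 4 members were detected, both dimly. Fos, the founding immediate early gene, is read by 10 spots per array, and its probe (mm9 chr12:86817900-86817959, beginning ggactttattttccagtagatagaaatcaa) gave 11.0 units on replicate 1 and 12.0 on replicate 2. None of the 10 spots was well above background on either array, although 7 of 10 were positive and significant on each. The spots ran around a median of 12.7 units on both arrays, from 6.77 to 17.1 units on replicate 1 and from 7.83 to 20.8 on replicate 2. Fosl1, which encodes FRA-1, gave 9.57 and 8.20 units and was not detected. Fosb was detected at 36.4 and 42.1 units, a level of -2.99 ± 0.23 (SD, n = 2). Fosl2, which encodes FRA-2, was detected with 1 of its 2 probes. The probe that starts at base 5726 of the transcript gave 50.1 and 47.5 units (-2.67 ± 0.03), and the one at base 738 gave 8.38 and 18 units and was not detected. All detected FOS signals lay below 101 units, where replicate 2 had its highest control spot, and above 17.6 units, its second-highest.

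**Figure D3:**
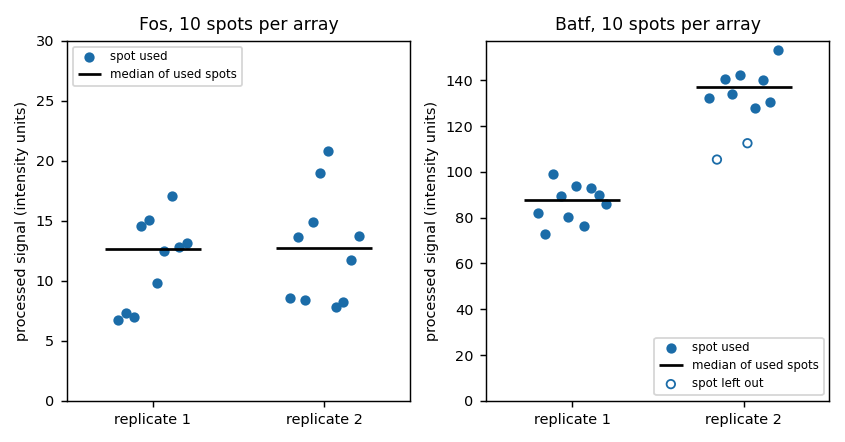
Processed signal in intensity units of the 10 spots of the Fos probe and the 10 spots of the Batf probe on each array, with filled points for used spots, open points for spots left out as outliers and bars at the median of used spots. The Fos spots overlap between the arrays around 12.7 units, whereas every used Batf spot of replicate 2 lies above every Batf spot of replicate 1.

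The JUN family was detected in full, with JunD far above the array's 75th percentile and the inducible members below it. Jund, the JUN protein of resting cells, gave 5580 and 7148 units (4.34 ± 0.34). Jun, the usual partner of Fos, gave 77.7 and 49.6 units (-2.33 ± 0.37). Junb, which opposes Jun in many settings, gave 49.7 and 79.1 units (-2.31 ± 0.56). Jun was higher on replicate 1 and Junb on replicate 2. On each array both lay below 101 units, the highest control spot of replicate 2, and above 17.6 units, its second-highest.

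Of the ATF family 5 of 7 members were detected. Atf4, the effector of the amino acid response, is controlled largely by translation of its mRNA, and its probe at base 1655 gave 36328 and 32084 units (6.78 ± 0.04). The other Atf4 probe, at base 504, gave 842 and 1260 units (1.73 ± 0.50). The first differed by -0.06 and the other by 0.70 on the log2 scale, replicate 2 minus replicate 1. Atf5, a close relative of Atf4, gave 4283 and 4676 units (3.85 ± 0.17). Atf2, which stress kinases activate, was detected with all 4 of its probes, from 118 and 99.2 units at base 888 to 4260 and 3720 units at base 4157. Atf1, a relative of CREB, was detected with 3 probes. Its probe at base 1196 gave 1457 and 1460 units (2.23 ± 0.09) and that at base 2050 gave 128 and 109 units (-1.40 ± 0.08). The brightest, with 3150 and 2524 units (3.18 ± 0.14), carries a file coordinate on chromosome X (mm9 chrX:51185510-51185569) while the gene lies on chromosome 15, and which locus its signal comes from was not tested. Atf7 was detected with both probes, at 58.2 and 57.8 units and at 121 and 96.6 units. The stress-induced Atf3 gave 6.91 and 8.17 units and Atf6, the membrane-bound sensor of unfolded proteins, gave 5.87 and 6.45 units. Both were near the median of the negative controls. Each of them rests on 1 probe.

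The BATF proteins pair with JUN in lymphocytes, and 2 of 3 were detected. Batf gave 86.0 and 138 units (-1.52 ± 0.56) over 10 spots per array. The 10 Batf spots used on replicate 1 ran from 73.0 to 99.3 units and the 8 used on replicate 2 from 128 to 153 units, with no overlap. Spots of 1 array share its RNA and are not replicates. Batf3 gave 39.3 and 44.3 units (-2.90 ± 0.20), and Batf2 gave 18.5 and 34.0 units and was not detected.

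Creb1, the constitutive cyclic AMP factor, was detected and Crem, its inducible relative, was not. Creb1 was detected with 2 of 3 probes. The probe at base 1931 gave 264 and 216 units (-0.38 ± 0.12), and that at base 8359 gave 254 and 131 units (-0.77 ± 0.59). The probe at base 8359 was 1.78-fold higher on replicate 1, the widest gap in that direction among the detected member probes. The third probe, designed on another transcript, gave 23.0 and 14.7 units. All 4 Crem probes stayed at or below 24.4 units on both arrays.

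Among the MAF proteins the small MAFs G and K, which lack an activation domain, were detected on every probe. Mafg was read by 4 probes with signals of 1617 to 3529 units, and Mafk gave 1195 and 1355 units (2.03 ± 0.21). Maff, the inducible small MAF, gave 7.14 and 24.4 units and was not detected. Maf, the large MAF of T helper and gamma-delta T cells, was detected at 224 and 142 units (-0.80 ± 0.38) with 1 probe, and the other gave 30 and 24.1 units and was not detected.

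NF-kB subunits were detected in 4 of 5 cases. Rela, the main transactivating subunit, gave 12464 and 11419 units (5.26 ± 0.01), and its probe lies at mm9 chr19:5648070-5648129. Rel, the c-Rel subunit of activated lymphocytes, gave 5.94 and 6.51 units and was not detected. The Rel call rests on 1 probe, and its promoter, printed above, holds kB matches. The file coordinate of that probe spans 15 bases (mm9 chr11:23641729-23641743), fewer than its 60. A detected Srf probe has a coordinate of 8 bases. What these coordinates mean for the signals was not tested. Nfkb1 was detected with the probe at base 2747, at 507 and 706 units (0.94 ± 0.42), while the probe at base 4056 gave 54.5 units, well above background, on replicate 1 and 22.3 units on replicate 2. Their first 30 bases, 5′ to 3′, are printed because they disagree on detection, and their coordinates do not overlap.
Nfkb1 at base 2747, chr3:135254550-135254609 of mm9, minus strand: tctatgacctggacgactcttgggagaagg
Nfkb1 at base 4056, chr3:135247621-135247680 of mm9, minus strand: aaatgctatttacttttttattttactttt

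Nfkb2 and Relb encode the subunits of the alternative NF-kB pathway, and both genes are themselves induced by NF-kB. Nfkb2 gave 1398 and 2273 units (2.52 ± 0.58). Relb was read by 3 probes. Those at bases 1942 and 1993 overlap and gave 655 and 1414 units (1.63 ± 0.87) and 1040 and 2214 units (2.29 ± 0.85). The third, on an alternative transcript, gave 69.7 and 64.0 units (-2.22 ± 0.00). The end of one overlapping probe and the beginning of the other are printed with the 9 shared bases in capitals, because the agreement of their values is not that of independent probes.
Relb at base 1942, last 30 bases, chr7:20191773-20191832 of mm9, minus strand: ggacatctgcagcgctggtggGAAGATGGG
Relb at base 1993, first 30 bases, chr7:20191722-20191781 of mm9, minus strand: GAAGATGGGgagcactccggttctctttga
Relb, alternative transcript, first 30 bases, chr7:20203058-20203117 of mm9, minus strand: ggcacaggtaccagaccccgacctttgacc

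Of the IkB proteins 4 of 5 were detected. Nfkbia, the classic inhibitor that NF-kB itself induces, gave 10360 and 15741 units (5.36 ± 0.51). Nfkbib, a second cytoplasmic inhibitor, was detected with 3 probes, at 5034 and 5083, at 1414 and 1829 and at 168 and 132 units. Nfkbie gave 2150 and 2454 units (2.88 ± 0.22). The nuclear IkB proteins act as cofactors rather than as cytoplasmic anchors. Of these, Nfkbiz gave 76.7 and 63.7 units (-2.16 ± 0.11), and Bcl3 gave 25.5 and 23.9 units and was not detected. The 3 cytoplasmic inhibitors among the members thus lay above the highest negative control spot on both arrays, and the 2 nuclear members were dim or not detected. Another nuclear IkB protein that is no member, Nfkbid, gave 5481 and 3864 units.

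All 3 subunits of the IKK complex were detected. Chuk, the IKK-alpha kinase, gave 4531 and 3736 units (3.72 ± 0.11), and Ikbkb, the IKK-beta kinase, gave 1070 and 1012 units (1.74 ± 0.03). Ikbkg, the scaffold NEMO, was detected with both probes, at 116 and 92.7 units and at 360 and 325 units. Tnfaip3, the ubiquitin-editing inhibitor A20, gave 1096 and 1149 units (1.85 ± 0.13). Srf, which drives immediate early genes, gave 2366 and 1984 units (2.80 ± 0.10) and 601 and 502 units (0.82 ± 0.10) with its probes. In these genes the arrays stayed close, with log2 differences between -0.20 and 0.19.

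The spread between the arrays was then compared across members as replicate 2 minus replicate 1. Of the 46 detected member probes 24 were higher on replicate 2 and 22 on replicate 1, with a median difference of 0.04. The median over all detected probes was -0.004, their median absolute difference 0.18, and the middle 95% of them lay between -0.65 and 0.72. Over 2-fold apart were 2 of the 46 member probes, against 1.15% of all detected probes, and both were Relb probes, higher on replicate 2, as were 0.766% of all. Over 1.5-fold apart were 9 member probes, against 7.85% of all: 8 were higher on replicate 2, against 4.63% of all, and 1 was higher on replicate 1, against 3.22% of all. With the array median as scaling this split was 3 and 3. Some of these probes are dim, so the count was repeated for probes above 500 units on both arrays, a limit chosen after seeing the data. Of 28 such member probes 2 were over 2-fold apart, against 0.414% of all probes of that brightness. Over 1.5-fold, 6 were higher on replicate 2, against 1.98% of all.

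Of the 8 probes over 1.5-fold higher on replicate 2, 5 belong to Relb, Nfkb2, Nfkb1 and Nfkbia, which are subunits or targets of NF-kB. Among those 5 are both overlapping Relb probes. The 46 detected member probes include 6 of NF-kB subunits and 6 of IkB proteins. The overlapping Relb probes were 2.34-fold and 2.31-fold higher on replicate 2, differences of 1.23 and 1.21 on the log2 scale. Only 0.363% and 0.421% of all detected probes were at least as high on replicate 2. Nfkb2 was 1.76-fold higher (0.82), Nfkbia 1.65-fold (0.72) and Nfkb1 1.51-fold (0.60) on replicate 2. Outside NF-kB, Batf was 1.74-fold higher (0.80), Junb 1.73-fold (0.79) and the Atf4 probe at base 504 1.63-fold (0.70). In contrast Rela differed by -0.01, the Relb probe on the alternative transcript by -0.005 and Tnfaip3, another NF-kB target, by 0.19. The IkB probes of Nfkbie (0.31), Nfkbiz (-0.15) and Nfkbib (-0.23, 0.13 and 0.49) did not pass the limit either. By class, 10 of the 13 detected probes of inducible members were higher on replicate 2, the overlapping Relb probes among them, with a median of 0.33. Of the 33 probes of other members 14 were higher there, with a median of -0.06, and 49.3% of all detected probes were. With 1 array per replicate no test of these differences was possible.

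**Figure D4:**
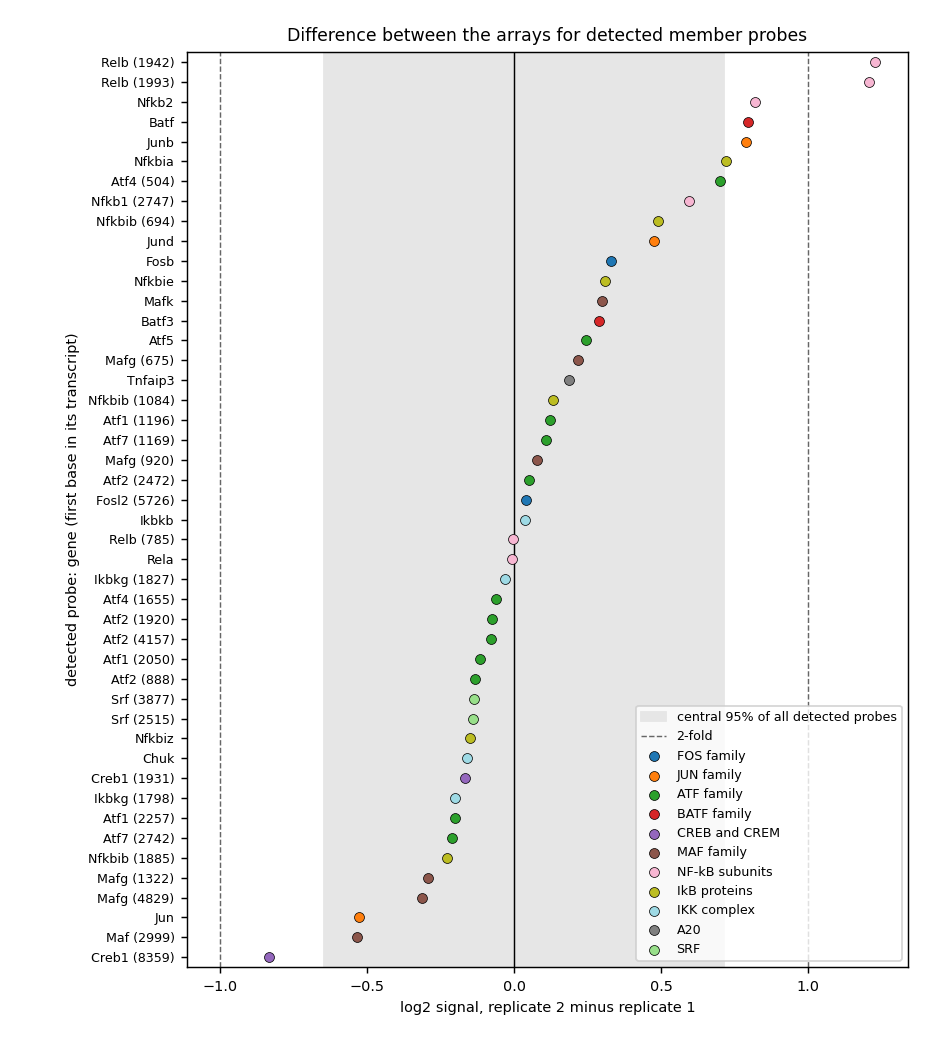
Difference between the arrays in log2 signal, replicate 2 minus replicate 1, for the 46 detected member probes sorted by size and coloured by role; the grey band holds the central 95% of all detected probes and dashed lines mark 2-fold. The overlapping Relb probes lie beyond 2-fold at 1.21 and 1.23, and Creb1 at base 8359 is lowest at -0.83.

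The direction of small differences and the 1.5-fold count depend on the scaling. Only 42.5% of probes on replicate 1 and 41.2% on replicate 2 were well above background, so the array median lies among undetected probes. When each array was centred on its median instead of its 75th percentile, the median of all detected probes moved by -0.23. Then 15 of the 46 member probes were higher on replicate 2, against 21.6% of all detected probes. Among inducible members the probes of Fosl2 (-0.19) and Tnfaip3 (-0.04) became lower there, as did probes of other members. Above the median of all detected probes lay 24 of the 46. That count cannot differ between the centrings, because each shifts all probes of an array alike. With the array median, 3 member probes were over 1.5-fold higher on replicate 2, the overlapping Relb probes and Nfkb2, against 1.58% of all. On replicate 1, 3 were over 1.5-fold higher, those of Creb1 at base 8359, Maf and Jun, against 10.1% of all. Nfkbia, Nfkb1, Batf, Junb and Atf4 at base 504 no longer passed that limit. The overlapping Relb probes then differed by 0.98 and 1.0, Nfkb2 by 0.59 and Nfkbia by 0.49. Under every scaling, background and source tried these 4 probes stayed higher on replicate 2, with Relb between 0.98 and 1.26.

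Genes known as NF-kB targets were examined for the same difference. Of 21 on the array 11 were detected, against 51.8% of all named genes. The cytokine gene Tnf gave 625 and 840 units (1.22 ± 0.39) and the chemokine gene Ccl5 3511 and 3676 units (3.53 ± 0.13), while Il6 and Il1b were not detected. Cxcl10, a chemokine that interferon also induces, gave 369 and 1121 units with its detected probe (1.05 ± 1.22), and its other probe, at 7.36 and 20.4 units, was not detected. Of the 11 detected targets 9 were higher on replicate 2, against 43.9% of all detected genes by their brightest probe, with a median difference of 0.35 against -0.03. Over 2-fold apart were 2 of the 11, Cxcl10 (3.29-fold) and Icam1 (2.69-fold, 95.9 and 237 units), against 0.525% of detected genes over 2-fold higher on replicate 2. Icam1, an adhesion molecule, and the next in order, the lymphotoxin gene Ltb with 14055 and 25505 units (0.98), were chosen after their values were seen. Nfkbid, a nuclear IkB protein that is also on the list, was lower on replicate 2 (-0.39). With the array median as scaling 6 of the 11 were higher on replicate 2. Under every scaling, background and source tried, 9 of 11 lay above the median of all detected probes. A change of centring alone cannot move that count, since it shifts all probes alike.

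Myeloid markers were read beside these genes. Of 6, only Csf1r and Cd14 were detected, with the brighter Csf1r probe at 77.6 and 133 units (0.89), another at 59.5 and 58.1 units (0.08) and Cd14 at 44.8 and 47.0 units, and Lyz2, Mpo, Spi1 and Cebpe were not. The summed signal of the myeloid markers' 9 probes was 349 units on replicate 2 and 290 on replicate 1. The sums of the B-lineage markers, 195 and 151 units, and of the stromal markers, 106 and 76.2 units, were higher on replicate 2 as well. These sums include undetected probes, and no stromal marker was detected. The negative control median was also higher on replicate 2, 7.50 against 6.55 units. Cd79b, not detected, gave 15.7 units on replicate 1 and 67.4 on replicate 2. Cd79a, the only B-lineage marker detected, gave 51.3 and 42.5 units. The sum of the T-lineage markers was lower on replicate 2, 454125 against 530963 units, and 4 of those 8 genes were higher on each array relative to the 75th percentile. The part of any of these in the difference between the arrays was not tested.

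Targets of ATF4 were nearly all detected, 11 of 12 against 51.8% of all named genes, and Vldlr was not. The stress factor gene Ddit3 (CHOP) gave 205 and 308 units (-0.31 ± 0.50), the pseudokinase gene Trib3 463 and 600 units (0.76 ± 0.35) and the asparagine synthetase gene Asns 14559 and 16474 units (5.64 ± 0.21). Of the 11 detected targets 9 were higher on replicate 2, against 43.9% of all detected genes, with a median difference of 0.32 against -0.03. With the array median as scaling 7 of 11 were. Under every scaling, background and source tried, 9 of 11 lay above the median of all detected probes, a count that a change of centring alone cannot move. Targets of ATF6 and the unfolded protein response were detected in 11 of 12 cases, against the same 51.8%, although Atf6 was not. Dnajb9 was the exception. Among them the chaperone genes Hspa5 (6.58 ± 0.04), Hsp90b1 (5.67 ± 0.17) and Calr (5.92 ± 0.01) differed little between the arrays. Of these 11 targets 3 were higher on replicate 2, against 43.9% of all detected genes, with a median difference of -0.02 against -0.03.

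**Figure D5:**
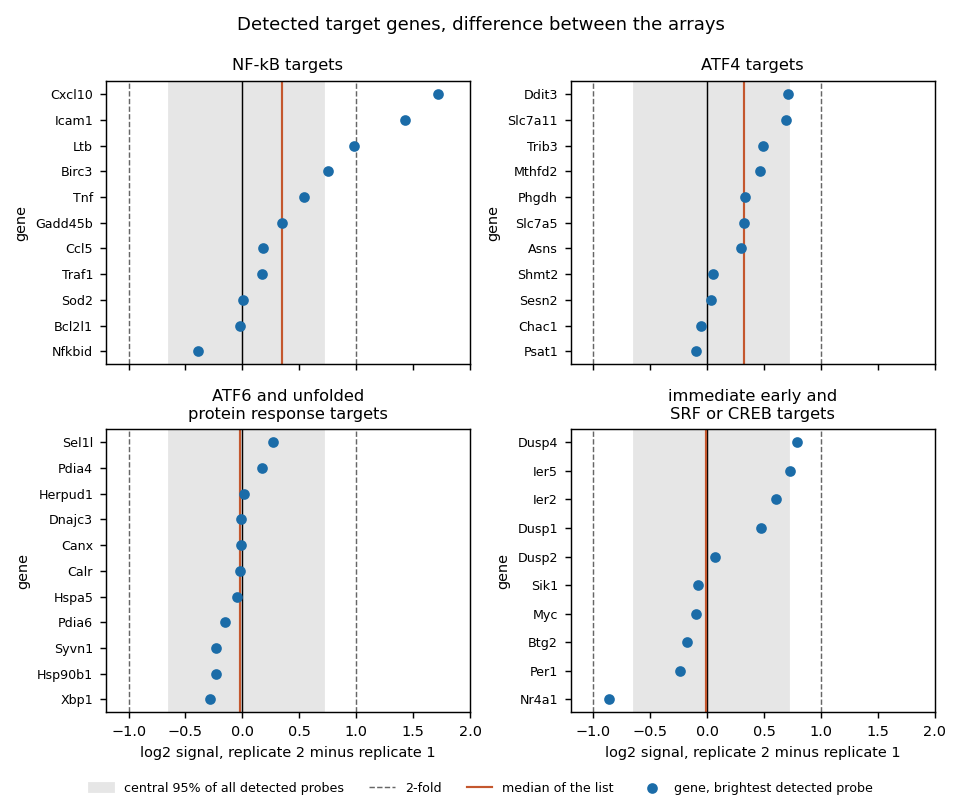
Difference between the arrays in log2 signal, replicate 2 minus replicate 1, for the brightest detected probe of each detected gene in 4 target lists; the grey band holds the central 95% of all detected probes, red lines mark list medians and dashed lines 2-fold. The NF-kB list has a median of 0.35 and reaches 1.72 at Cxcl10, the ATF4 list 0.32, and the ATF6 list -0.02.

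Immediate early genes and other targets of SRF or CREB were detected in 10 of 18 cases (55.6%), against 51.8% of all named genes. Egr1 gave 29.1 and 14.6 units and Egr2 gave 7.36 and 8.62 units, and neither was detected. Detected were Ier2 at 52.8 and 73.8 units (-2.32 ± 0.43), Ier5 at 469 and 715 units (0.90 ± 0.52) and Nr4a1, an orphan receptor induced by T-cell receptor signals, at 352 and 178 units (-0.32 ± 0.61). Nr4a1 was 1.82-fold higher on replicate 1, whereas Ier5 was 1.66-fold higher on replicate 2. Of the 10 detected genes 5 were higher on each array.

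Genes of the machinery upstream of the factors were nearly all detected. All 19 genes of the receptor-proximal NF-kB relay were detected, among them the adaptor gene Bcl10 (3.36 ± 0.03) and the paracaspase gene Malt1 (1.51 ± 0.15), and 14 of the 19 were higher on replicate 1, with a median difference of -0.13 against -0.03 for all detected genes. All 9 other listed NF-kB regulators, most of them inhibitors, were detected, including Nfkbid (3.89 ± 0.27), Nfkbil1 (3.85 ± 0.16) and the deubiquitinase gene Cyld (0.97 ± 0.05). Of 13 MAP kinase genes 12 were detected, including the JNK genes Mapk8 (-0.57 ± 0.10) and Mapk9 (3.13 ± 0.15). The exception was Mapk10, the neuronal JNK gene. All 10 coactivators of CREB and SRF were detected, among them Crebbp (4.08 ± 0.24), Ep300 (0.57 ± 0.11) and Crtc1 (1.53 ± 0.25). Of 20 other zipper partners 14 were detected, including Jdp2, a repressor of AP-1, at 4.27 ± 0.30, Nfe2l1 at -0.11 ± 0.07 and Nfe2l2 at 3.57 ± 0.05, while Nfe2 and Bach2 were not. Across the 9 lists 102 of 129 genes were detected (79.1%), against 51.8% of all named genes.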

How the data were processed

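The scanner intensity values were deposited by the authors and, per the file headers, were made by Agilent Feature Extraction (version 10.5.1.1) from 1-colour scans, with spatial background subtraction and trend removal and no scaling between arrays. The authors also deposited log2 values of these spots, whose scale and centring are not stated, and these served as an alternative. Its medians were 5.18 on both arrays and its lowest value 5.13. Outlier spots were left out (182 and 186, of which 0 and 2 belonged to members). Log2 signals of a probe's spots were averaged, less the 75th percentile of that array's non-control probes. A probe with several spots was well above background if at least 50% of them were. Python 3.11.15, R 4.3.3 and limma 3.58.1 (normexp, offset 50) were used, and the scripts were checked on simulated data.

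Genes were named by the files' gene names, updated through RefSeq (31025 probes, 22065 genes). Both arrays lie on 1 slide. Probe coordinates are mm9, per the file headers, and no gene models of mm9 were used, so exons and UTRs are not stated. The planned placement of probes on proteins was not run, so at most 30 bases of a probe are printed, and Relb was chosen for this after its values were seen. All 38 members are named, and of each pathway list the first 3 detected and first 2 not detected genes in fixed order, plus any class of 4 or fewer. A few genes under this rule are not reported here but stay in every count. The members and lists were chosen with earlier results of these data known. With 2 arrays, their number limits all precision.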

Additional observations from a re-analysis of the deposited data

How the results depend on the processing

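Detection did not hinge on 1 array: leaving out either replicate gave 29 to 29 members, 11 to 11 inducible and 18 to 18 other members, 46 to 47 member probes and 102 to 104 pathway genes. Matching probes by accession gave 28 members and 41 probes, and requiring every probe of a gene gave 25 members. Inducible members above the highest negative control spot on both arrays numbered 6, against 11 well above background, and 7 detected members in all lay below that spot of replicate 2. The median level of detected member probes was 1.68, and other scales set it to -1.83 (75th percentile over detected probes), 5.67 (array median), 1.39 (normexp) and 9.88 (the authors' deposited table), as their construction gives. Member probes over 2-fold apart numbered 2. Counting undetected probes too gave 5 (4 higher on replicate 2), and the 1.5-fold limit gave 9. With the array median as scaling they numbered 2, 1 higher on each array, and with its 1.5-fold limit, added after seeing the data, 6, 3 higher on each. In all, 48 alternatives were labelled as leaving a main count or median the same, and 8, printed here, as moving it. That label does not mean an equal value. It was given to 22, 25 and 34 detected members against 29, and to 35 and 56 member probes against 46. For differences of single probes 224 were labelled the same and 52 moved, for counts by family, list or motif 159 and 6. No difference over 2-fold changed sign. No paired analysis was possible because there is 1 group. The placement of probes on proteins was not run. Signals near the negative controls limit all calls for dim members, and with 2 arrays of unstated origin the spread may be technical.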
